A study of Mus musculus with 40 samples.

Results

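The choroid plexus genes examined here were Ttr, Kl, Folr1, Enpp2, Sostdc1, Krt18, Otx2, Clic6, Kcnj13 and Aqp1, taken as every array probe whose gene name in the scanner tables equals one of these symbols. All 10 genes were found, with 13 of the 55589 probes that had a value, against 36362 gene names in all. Total RNA of cortex or cerebellum from C57Bl/6 mice was hybridized to 40 Agilent 1-colour arrays, which made 10 groups of 4. Per region, young wild types of 2 months and aged wild types of 29 months received a normal chow (36 mg/kg of alpha-tocopherol). The other aged groups were wild types given a vitamin E deficient chow and Ttpa-/- animals given either that chow or a supplemented one (600 mg/kg of alpha-tocopherol). Ttpa encodes the transfer protein that keeps alpha-tocopherol, the main form of vitamin E, in the circulation, and the mutation is carried in every cell. The arrays lay on 5 slides of 8, each group within 1 slide. The question put to the data was which single arrays carried much RNA of these genes, and how they stood in the comparisons of age, diet, genotype and region.

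The choroid plexus is a folded sheet of epithelium that hangs into the ventricles of the brain and secretes the cerebrospinal fluid. Its cells express transport proteins, ion and water channels and secreted carriers at very high levels, and transthyretin is their best known product. The plexus lies loosely next to the cortex in the lateral ventricles and next to the cerebellum in the fourth ventricle, so that a dissected piece of either region can carry more or less of it.

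Sequences are shown for 2 of the array probes, because for these the deposited letters form an open reading frame up to a stop codon. They are also shown for 2 upstream regions, because the genes belong to a set whose levels moved together over cortical arrays. The 60-base probe of Kcnj13, an inward rectifier potassium channel, lies at chr1:89282991-89283050 on the minus strand of mm9, and that of Enpp2, the secreted enzyme autotaxin, at chr15:54670921-54670980 on the minus strand of mm9. Each reads as 19 codons and then the stop codon in capitals.
Kcnj13 probe: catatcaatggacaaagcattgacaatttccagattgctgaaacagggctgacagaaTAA
Enpp2 probe: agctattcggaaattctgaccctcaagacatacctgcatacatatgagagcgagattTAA
Upstream windows of RefSeq gene starts (GRCm38.p6, another build than that of the probes) were used for 5 of the 10 members, Kcnj13, Kl, Aqp1, Krt18 and Otx2, with 8 windows in all. Otx2 had 4 of these, and 2 of its 4 overlapped, so the 8 were not separate stretches. The 250 bases before the start were searched on both strands for 3 motifs: the CCAAT box, the TATAAA letters of a TATA box, and TAATCC, the core that homeodomains of the Otx type are known to bind. Kcnj13 is shown for its CCAAT and TATAAA letters (chr1:87394730-87394979, minus strand) and 1 of the 4 windows of Otx2 for its TAATCC letters (chr14:48665110-48665359, minus strand), with matches on either strand in capitals.
Kcnj13 upstream: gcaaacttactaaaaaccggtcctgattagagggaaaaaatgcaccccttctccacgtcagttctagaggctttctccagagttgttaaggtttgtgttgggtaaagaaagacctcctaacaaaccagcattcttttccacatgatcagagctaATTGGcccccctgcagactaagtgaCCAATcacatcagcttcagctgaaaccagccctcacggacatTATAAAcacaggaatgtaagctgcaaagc
Otx2 upstream: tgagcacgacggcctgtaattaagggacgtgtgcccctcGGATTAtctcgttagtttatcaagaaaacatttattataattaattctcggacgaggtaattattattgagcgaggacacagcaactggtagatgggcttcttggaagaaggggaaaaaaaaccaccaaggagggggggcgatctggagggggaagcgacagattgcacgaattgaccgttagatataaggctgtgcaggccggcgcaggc
In Kcnj13 the TATAAA letters began 29 bases before the start and CCAAT letters stood in 2 places upstream of them, and the matches shown did not overlap. Of the members' 8 windows, 2 held CCAAT, 2 held TATAAA and 1 held TAATCC, against 33.8%, 12.4% and 6.25% of all 32851 windows. These are matches of letters and no binding was measured.

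The values below are log2 processed signals relative to the 75th percentile of the array, which itself was 365 to 925 in signal units. Levels are compared between arrays for 1 probe and not between probes. Of the probes, 51.4% to 61.4% were well above background on an array, and arrays of a group correlated at 0.973 to 0.993. No member was saturated on any array. For Ttpa, the brighter of 2 probes was well above background on all 12 wild-type arrays of the cerebellum (-4.29 to -2.76) and on 1 of 8 Ttpa-/- arrays there (-7.04 to -5.00), and in the cortex on 1 of 20 arrays, so that the labels could be checked in the cerebellum only. The other Ttpa probe was well above background on 1 of 40 arrays, Ttpa-/- deficient-diet cerebellum replicate 2 (-2.67). The mean of 5 cerebellar marker genes was 5.23 to 6.33 on cerebellar arrays and -2.35 to -1.0 on cortical ones, and that of 5 cortical genes was -4.66 to -3.87 and 0.89 to 1.48.

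Ttr, whose product transthyretin carries thyroxine and retinol-binding protein, separated single arrays in both regions. It read 6.90, 6.71, 6.81 and 0.76 in young wild-type cortex (replicates 1 to 4), and 6.49, 5.56, 7.07 and 1.72 in aged wild-type cortex. In aged wild-type cortex on the deficient diet it read 6.77, 6.46, 5.15 and 6.01. Each wild-type group on the normal diet thus held 1 array far under the other 3, and the group on the deficient diet held none. Ttpa-/- cortex read 3.44, 7.36, 7.29 and 7.36 on the deficient diet and 7.15, 7.47, 6.17 and 6.36 on the supplemented diet. The low array of the former was replicate 1. Over all 20 cortical arrays Ttr ranged 105-fold, and 17 arrays lay between 5.15 and 7.47.

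In the cerebellum Ttr was highest on the young arrays. Young wild-type cerebellum read 7.78, 4.64, 2.55 and 1.19, so that replicate 1 exceeded every one of the 40 arrays for this probe. Aged wild-type cerebellum read -3.09, -5.66, -3.29 and -2.63, where replicate 2 was not well above background, and aged wild-type cerebellum on the deficient diet read -3.20, -2.75, -1.44 and -3.71. Ttpa-/- cerebellum read -2.77, -3.13, -3.99 and -3.23 on the deficient diet and -3.98, -1.16, 0.45 and -1.24 on the supplemented diet. All 4 young arrays lay above all 16 aged arrays. In RNA of whole tissue pieces, fewer plexus cells and less of this RNA per cell cannot be told apart.

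**Figure D1:**
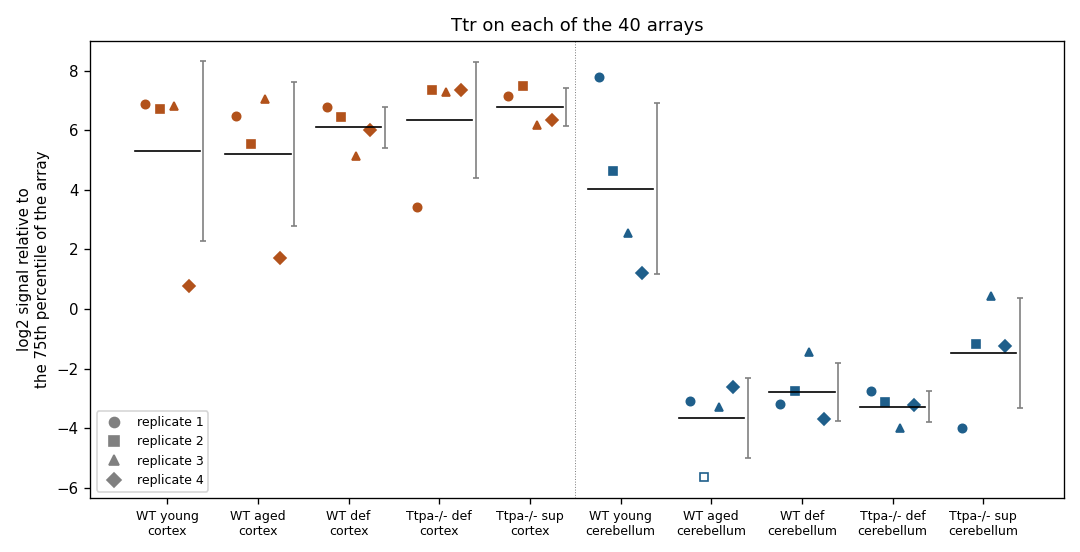
Ttr on each array, as log2 signal relative to the 75th percentile of the array (vertical axis), for the 10 groups (horizontal axis; def, deficient diet; sup, supplemented diet). Symbols are single arrays by replicate number, open where not well above background, black lines are group means and grey bars the SD (n = 4); 3 cortical arrays sit at 0.76, 1.72 and 3.44 under the other 17, and young cerebellum spans 1.19 to 7.78.

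The same 3 cortical arrays were the lowest for the other members. Young wild-type replicate 4, aged wild-type replicate 4 and Ttpa-/- deficient-diet replicate 1 were the 3 lowest of 20 cortical arrays for 9 of 10 members, Ttr included. The exception was Enpp2, for which young replicate 4 (5.41) was preceded by wild-type deficient-diet replicate 3 (5.29). The share of all probes for which the same 3 arrays were the lowest is not given. The first 2 of these arrays shared a slide with each other and with the unaffected arrays of their groups.

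Among the secreted and surface proteins, Folr1, the folate receptor through which the plexus passes folate into the cerebrospinal fluid, read 2.08, 1.83, 1.92 and -2.53 in young cortex. It read 1.28, 0.61, 1.79 and -2.36 in aged wild-type cortex and -1.92, 1.90, 1.85 and 1.97 in Ttpa-/- cortex on the deficient diet. Over the other 17 cortical arrays it lay between -0.20 and 2.10, and the median of these exceeded the median of the 3 low arrays 17.7-fold. Kl, the klotho co-receptor of a phosphate-regulating hormone, lay at -1.15 to 0.79 on the 17 arrays and at -3.07 to -1.74 on the 3. Sostdc1, a secreted antagonist of bone morphogenetic protein signals, lay at -2.42 to -0.18 on the 17 and at -4.05 to -2.76 on the 3, with the narrowest separation of the 9 members, 0.33. Enpp2, which makes lysophosphatidic acid and is also expressed by oligodendrocytes, lay at 5.29 to 6.51 on the 17 and at 4.80 to 5.41 on the 3, so that these ranges overlapped.

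For the epithelial keratin Krt18 the 17 arrays spanned -1.02 to 1.0 and the 3 arrays -3.14 to -2.88, the widest separation of all members at 1.86. Otx2, the homeobox factor that specifies the plexus, showed the lowest value on aged wild-type replicate 4 (-4.89), where it was not well above background, while its 17 arrays spanned -1.69 to 0.90. The chloride channel gene Clic6 spanned -0.10 to 2.25 on the 17 arrays against -2.31 to -1.43 on the 3. Among the remaining channels Kcnj13 spanned 0.40 to 2.04 against -1.10 to -0.24. The water channel gene Aqp1 spanned -2.07 to 0.37 against -4.20 to -3.45. By medians, the 17 arrays exceeded the 3 by 1.98-fold for Enpp2 up to 33.2-fold for Ttr. The 3 arrays were chosen for these values, so the differences between the sets are a description without a test.

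**Figure D2:**
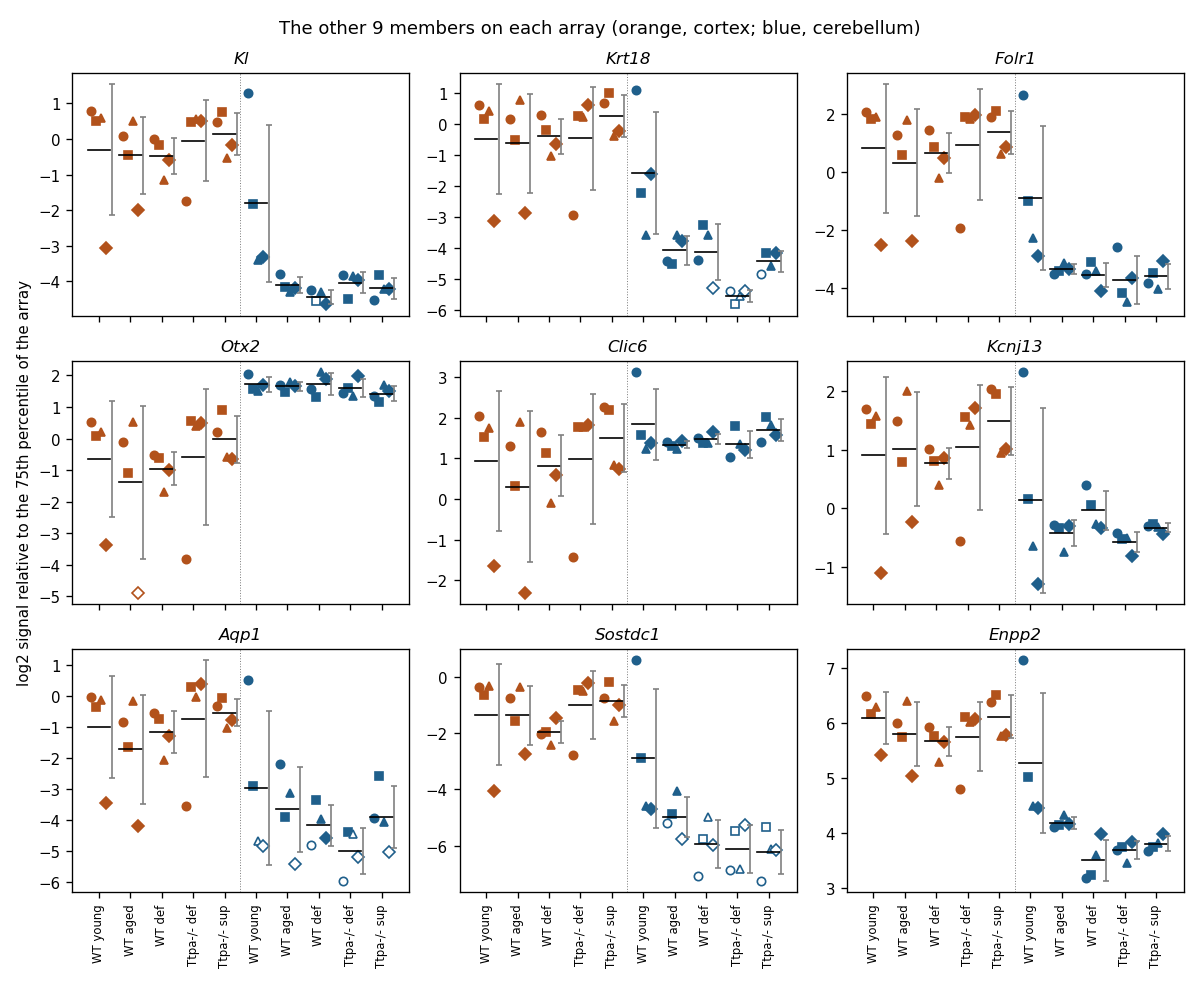
The other 9 members on each array, in panels, as log2 signal relative to the 75th percentile (vertical axes differ between panels) against the 10 groups, cortex in orange and cerebellum in blue. Symbols are single arrays (circle, square, triangle and diamond for replicates 1 to 4; open, not well above background), lines are means and bars the SD (n = 4); in cerebellum Otx2 keeps between 1.16 and 2.12 while Sostdc1 falls from 0.61 on one array to values not above background.

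Seen within each group, young cortex replicate 4 lay under the mean of the other 3 arrays by a median of 3.58 over the 10 members (range of array minus others -6.04 to -0.90). Aged wild-type cortex replicate 4 lay under it by a median of 3.17 (-4.67 to -1.02), and Ttpa-/- deficient-diet cortex replicate 1 by 3.26 (-4.29 to -1.26). Each of these was the lowest of its group for 10 of 10 members. A milder form was seen on wild-type deficient-diet cortex replicate 3, also the lowest of its group for 10 of 10, by a median of 0.93. In Ttpa-/- cortex on the supplemented diet, replicate 3 was the lowest for 8 members and replicate 4 for 2, and replicate 2 was the highest for 8. The aged cerebellar groups showed no such array, since no replicate there was the lowest or the highest for more than 6 members.

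**Figure D3:**
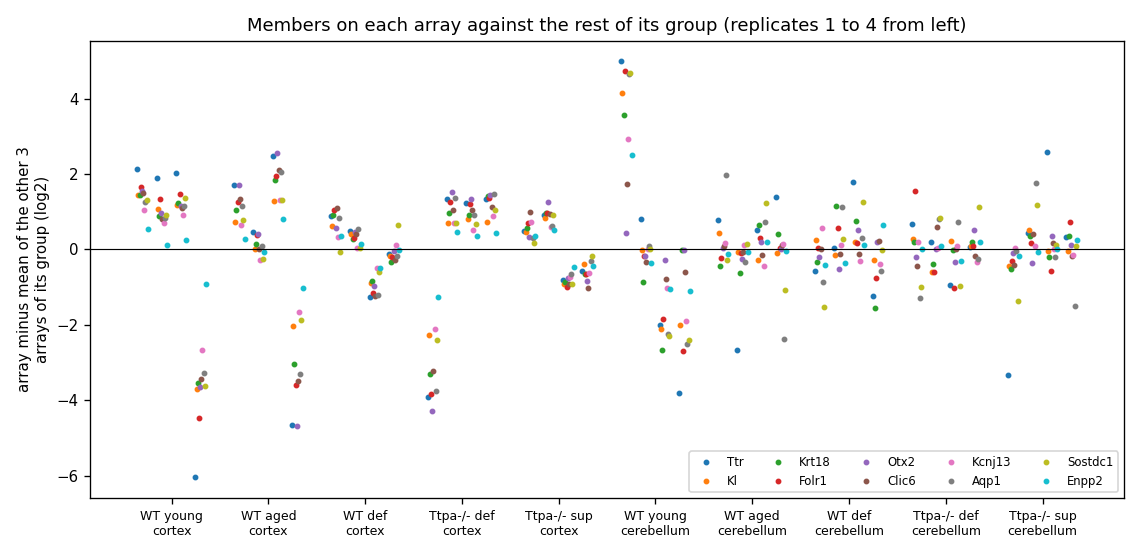
Each of the 40 arrays (horizontal axis, 4 to a group) against the other 3 of its group, as the difference in log2 signal (vertical axis), with a coloured point for each member. The points of young cortex replicate 4 reach -6.04 and those of young cerebellum replicate 1 reach 4.99, and on each of these arrays the points of all 10 members fall to one side.

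Young cerebellum replicate 1 was the highest cerebellar array for 9 of 10 members and the highest of its group for 10 of 10. It exceeded the mean of the other 3 young arrays 31.7-fold for Ttr, 26.6-fold for Folr1, 25.4-fold for Sostdc1 and 17.8-fold for Kl. For Aqp1 the measured ratio was 25.2, with only 1 of the other 3 arrays well above background. The folds were 11.8 for Krt18, 7.55 for Kcnj13, 5.66 for Enpp2, 3.31 for Clic6 and 1.36 for Otx2. Sostdc1 read 0.61, -2.88, -4.61 and -4.70 on the 4 young arrays, and Folr1 read 2.67, -1.01, -2.27 and -2.90. Replicate 2 was second on both. For Kl the 4 values were 1.30, -1.83, -3.40 and -3.32, again with replicates 1 and 2 above the others. The share of all probes that were highest on replicate 1 is not given.

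On the 16 aged cerebellar arrays some members were near background and others stayed bright. Sostdc1 was well above background on 2 of the 16, Aqp1 on 10 and Krt18 on 10. In contrast Otx2 (1.16 to 2.12), Clic6 (1.03 to 2.02), Kcnj13 (-0.81 to 0.40) and Enpp2 (3.18 to 4.33) were well above background on 16 of 16, with ranges of 0.96, 0.99, 1.21 and 1.14. Otx2 is also known from granule neurons of the cerebellum. For Ttr, Kl and Enpp2, all 4 young arrays lay above all 16 aged arrays (2.88% of 31819 probes), and for Clic6, Kcnj13 and Aqp1 only replicate 1 did. For Otx2 none did, and its highest cerebellar value (2.12) was on wild-type deficient-diet replicate 3, just above young replicate 1 (2.05).

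Over cortical arrays the members moved in step with Ttr. The widest gap in cortical Ttr lay between 1.72 and 3.44, so the relation was taken over the 18 arrays above it. These include 1 of the 3 low arrays, Ttpa-/- deficient-diet replicate 1 (3.44), which itself lay apart from the next array (5.15). Pearson's r with Ttr ran from 0.837 for Sostdc1 to 0.984 for Aqp1, and Spearman's rho from 0.845 to 0.950. Of these 9 relations, each had a permutation p of 1e-05, the smallest that 100000 draws can give, to 4e-05 (adjusted 1.1e-05 to 4e-05). Without the 2 arrays farthest from the median of Ttr, that low array among them, r was 0.706 for Sostdc1 to 0.950 for Aqp1. No r is given for the cerebellum, where the young arrays lay above all aged ones in Ttr.

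**Figure D4:**
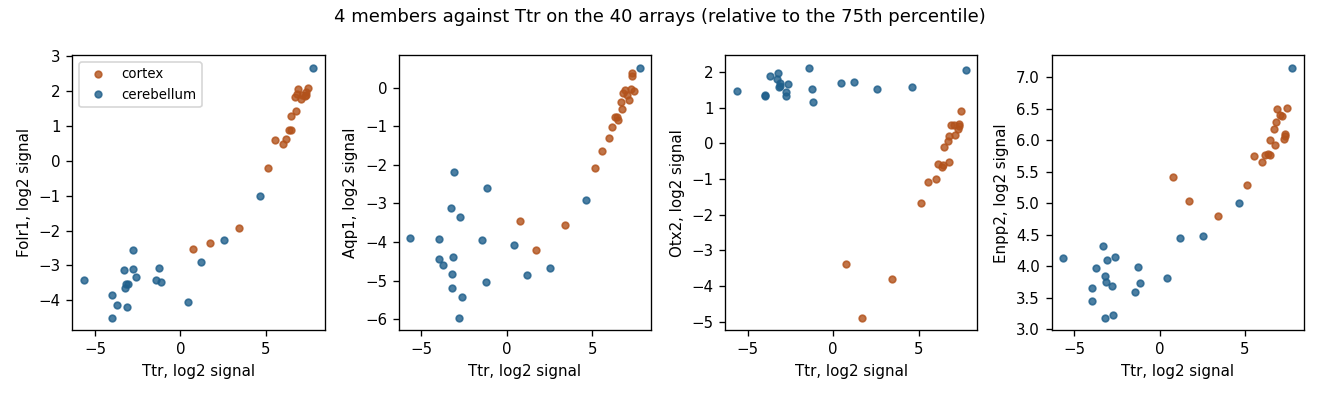
Folr1, Aqp1, Otx2 and Enpp2 (vertical axes) against Ttr (horizontal axes) on the 40 arrays, as log2 signal relative to the 75th percentile, with a point for each array and the region by colour. In cortex all 4 rise with Ttr, and in cerebellum Otx2 stays between 1.16 and 2.12 over a Ttr range of -5.66 to 7.78.

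Genes outside the members were ranked by how they followed the members over the 40 arrays. Each gene's mean in a region was first subtracted, so that the ranking describes scatter within the regions. Pearson's r was then taken, as a description, with the mean of the members' standardized deviations. The highest were Wdr86 (0.959), Prlr, the prolactin receptor (0.958), Steap1 (0.949), Slc4a5, a sodium bicarbonate cotransporter (0.944) and Calml4 (0.938). They were followed by F5, coagulation factor V (0.932), the tight junction gene Cldn2 (0.931), 1500015O10Rik (0.925), 1110059M19Rik (0.910) and Wdr63 (0.904). These 10 came from 36805 probes, less the members and probes named only by a probe, accession or locus identifier. Of the 10, 7 stood on the list of 26 further genes of the choroid plexus. That list was chosen with earlier results of these data known, so the overlap is a description. The points share their arrays and their scaling.

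Of that further list, 25 genes were on the array. For 13 of 25 the 3 low cortical arrays lay under all other 17, and for 23 of 25 young cerebellum replicate 1 was the highest of 20 cerebellar arrays. The share of all probes with either pattern is not given, so these counts are a description. The list's mean log2 signal was -2.72 to -2.13 on the 3 low cortical arrays, against -1.48 to 0.06 on the other 17. It was 0.35 on young cerebellum replicate 1, -2.17 to -1.63 on the other 3 young arrays and -2.45 to -2.03 on the 16 aged ones. Kcne2, a potassium channel subunit of the plexus epithelium, read 2.34, -1.15, -3.26 and -3.52 on the 4 young cerebellar arrays and -7.36, -7.36, -7.49 and -6.30 on those of aged wild-type mice, where it was not well above background on any.

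Genes of ciliated ependyma, which lines the ventricles beside the plexus, moved with the members in part. The mean of the 7 was -2.02 to -1.5 on the 3 low cortical arrays and -1.63 to -0.27 on the other 17, so that these ranges overlapped. On young cerebellum replicate 1 it was -2.57, under the -2.56 to -1.41 of the other young arrays. Markers of cortical neurons (5 genes) were at 1.18 to 1.48 on the 3 low arrays and at 0.89 to 1.31 on the other 17. The part of other tissues in the members' levels was not tested.

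**Figure D5:**
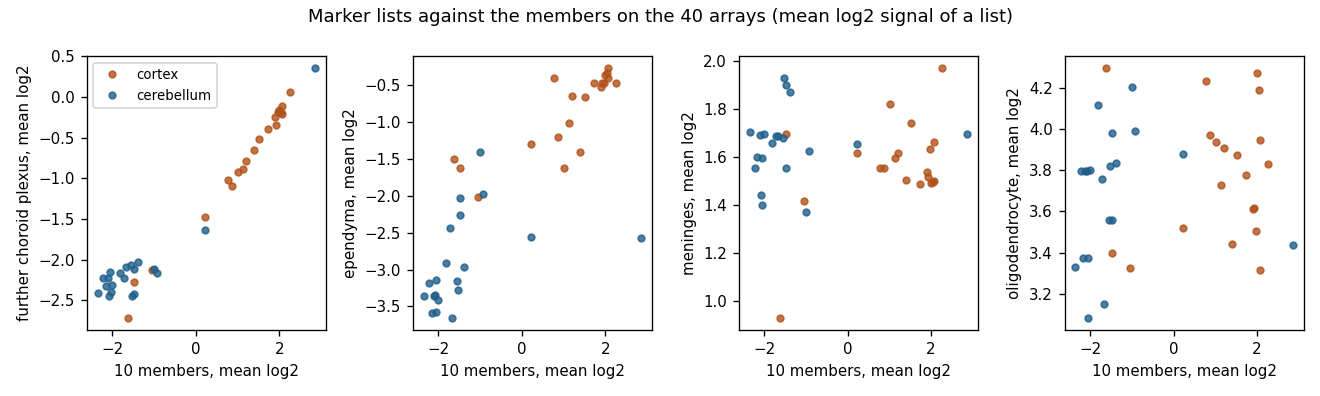
Mean log2 signal of 4 marker lists (vertical axes: further choroid plexus, ependyma, meninges, oligodendrocyte) against the mean of the 10 members (horizontal axes) on the 40 arrays, with a point for each array. The further plexus list rises with the members in cortex and is highest, 0.35, on young cerebellum replicate 1, whereas ependyma is at -2.57 on that array.

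With age, 3 members were called lower in cerebellum and 0 in cortex. Ttr fell by 7.70 on the log2 scale (SE 1.27, adjusted p = 5.8e-05, limma with Benjamini-Hochberg adjustment), from 4.04 ± 2.87 to -3.67 ± 1.36 (SD, n = 4), with a 95% interval of -10.3 to -5.11. Kl fell by 2.30 (SE 0.74, adjusted p = 0.0403, limma) and Krt18 was 5.64-fold lower (SE 0.82 on the log2 scale, adjusted p = 0.0456, limma). These were 3 of the 9 members tested, where 1.04% of 30627 probes were called lower, and 0 members were called higher (3.99% of probes). Aged minus young was -2.47 for Folr1 (adjusted p = 0.108), -2.08 for Sostdc1 (adjusted p = 0.117) and -1.09 for Enpp2 (adjusted p = 0.0587, all limma). It was -0.56 for Kcnj13 (adjusted p = 0.660), -0.50 for Clic6 (adjusted p = 0.790) and -0.06 for Otx2 (adjusted p = 0.985, all limma), and Aqp1 was not tested since neither group had 4 arrays above background. The means were lower in aged mice for 10 of 10 members. The median difference was -2.08 over the 9 members tested and -0.01 over all probes tested. Without young replicate 1 the difference turned positive for Kcnj13 (0.17), Aqp1 (0.48) and Otx2 (0.05). The 4 young and 4 aged arrays did not overlap for 5 members (Ttr, Kl, Krt18, Folr1 and Enpp2), against 19.1% of probes. For Ttr the exact two-sided permutation test gave p = 0.0286, the smallest that 4 against 4 arrays allow.

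Calls other than Ttr hung on single arrays. Without young cerebellum replicate 1, Kl (-1.26, adjusted p = 0.276) and Krt18 (-1.61, adjusted p = 0.256) were not called in the limma fit, while Ttr was (-6.46, adjusted p = 0.000779). Leaving out young replicate 2 or any 1 of the 4 aged arrays also left Ttr alone, leaving out young replicate 3 gave 4 calls and leaving out young replicate 4 gave 5. The young arrays were on another slide than the aged ones, so slide and age cannot be told apart here. Further plexus genes called lower were Kcne2 (at least 12.7-fold, adjusted p = 0.00106), Calml4 (-2.26, adjusted p = 0.0397) and the carbonic anhydrase gene Car12 (-1.73, adjusted p = 0.0168), 3 of 19 tested in limma with a median of -0.54, and 0 were called higher. In the same comparison 2 of 3 red blood cell genes were called higher and 0 of 5 ependymal genes tested were called, with a median of -0.84 (mean of the list -2.57 to -1.41 on young and -3.42 to -2.02 on aged wild-type arrays), and their part in the result was not tested.

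In the cortex, where young and aged arrays shared a slide, 0 of 10 members were called with age (1.59% of 28043 probes were called higher and 0.499% lower), 0 had an unadjusted p under 0.05 in limma, 0 were called by the methods' own test on these values, and 0 were without overlap (14% of probes). Aged minus young for Ttr was -0.09, with a 95% interval of -2.68 to 2.5. Each of both groups held 1 low array, and the value was -1.60 without young replicate 4 and 1.08 without aged replicate 4, and 0.38 to 0.45 without any other young array, so that the sign turned with the array left out. For Enpp2 the interval was -1.07 to 0.48. The ageing change in the cerebellum minus that in the cortex was -7.62 for Ttr (SE 1.80, adjusted p = 0.0186, limma interaction), and this was the only member called, where 1.46% of 31372 probes were. It was not called without young cerebellum replicate 1 or in a fit of the 4 groups alone.

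In the limma fit of all 40 arrays, 0 members were called for vitamin E or Ttpa in either region. That fit used 1 spread per probe over all 10 groups, so the arrays that stood apart also entered the SE of comparisons without them. For Krt18 in cerebellum, Ttpa-/- on the deficient diet against wild types on normal chow had an SE of 0.82, with group SDs of 0.20 and 0.46. The 0 calls and the intervals below carry this shared spread. Krt18 and Enpp2 in cerebellum were called by other tests, as given below for each. In aged wild-type mice, deficient minus normal diet for Ttr was 0.89 in cortex and 0.89 in cerebellum (95% intervals -1.70 to 3.48 in both), with 0 of 10 members called in cortex (0.117% of probes higher, 0.106% lower) and 0 of 8 tested in cerebellum (0.461% higher, 0.82% lower). The cortical value was -0.27 without aged wild-type replicate 4. Enpp2 read 3.18, 3.23, 3.59 and 3.98 in cerebellum on the deficient diet and 4.10, 4.14, 4.33 and 4.15 on the normal diet. These arrays lay on 1 slide and did not overlap, which held for 1 member against 16.8% of probes, and the difference was -0.68 (adjusted p = 0.303, limma). The methods' own test, without adjustment, called Enpp2. Oligodendrocyte markers were lower there too, 6 of 6 in mean with a median of -0.50 and 1 called in limma, and their part in the result was not tested.

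Between Ttpa-/- mice on the deficient diet and wild types of that age on normal chow, 0 of 10 members were called in cortex (3.14% of probes higher, 1.6% lower) and 0 of 8 tested in cerebellum (2.67% higher, 1.79% lower) in the limma fit of all arrays. The difference for Ttr was 1.15 in cortex (95% interval -1.44 to 3.74) and 0.39 in cerebellum (-2.21 to 2.98). With 1 low array in each cortical group, the cortical value ran from -0.01 without aged wild-type replicate 4 to 2.13 without Ttpa-/- replicate 1. Krt18 read -5.40, -5.82, -5.56 and -5.39 in Ttpa-/- cerebellum, not well above background on any array, and -4.40, -4.53, -3.59 and -3.76 in wild-type cerebellum. The arrays did not overlap, and the wild-type mean was at least 1.59-fold higher (adjusted p = 0.249, limma), the bound being set by the dimmest signals above background of the Ttpa-/- arrays. Krt18 was called in a limma fit of these 2 groups alone and by the methods' own test with and without adjustment. With Enpp2, this made 2 members without overlap against 17% of probes. Beside Enpp2, oligodendrocyte markers were lower in 6 of 6 means, with a median of -0.49 and 2 called. In the further plexus list the angiotensin-converting enzyme gene Ace was higher in Ttpa-/- cortex by 1.02 (adjusted p = 0.00363, limma), 1 of 20 tested. For Ace the 3 low cortical arrays did not lie below the other 17, and 5 of 5 striatal markers were also higher in mean in this comparison, with a median of 0.51 and 1 called, whose part in the result was not tested. The difference between regions in this change was called for 0 members (3.38% of 31560 probes).

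Within the deficient diet, Ttpa-/- minus wild-type for Ttr was 0.26 in cortex and -0.50 in cerebellum, and 0 members were called (1.53% of probes higher and 1.53% lower in cortex; 3.02% and 1.92% in cerebellum). In cerebellum Kcnj13 (-0.53, adjusted p = 0.574, limma) was the only one of 7 members tested that was without overlap, against 13.5% of probes tested. On the second Kcnj13 probe, well above background on all of these arrays, the groups overlapped (-0.44). Krt18, like the first Kcnj13 probe, was without overlap, but it was not tested there. It was well above background on 0 of 4 Ttpa-/- arrays and on 3 of 4 wild-type arrays. Supplemented minus deficient diet in Ttpa-/- mice was 0.43 for Ttr in cortex, where 0 members were called (1.32% higher, 1.99% lower). In cerebellum, on 1 slide, it was 1.80 (95% interval -0.80 to 4.39, exact permutation p = 0.114), where again 0 were called (0.209% higher, 0.134% lower). Krt18 was without overlap there, with supplementation at least 1.24-fold higher. It was not tested, being well above background on 3 of 4 supplemented and 0 of 4 deficient-diet arrays. None of the 7 members tested was without overlap, against 5.32% of probes tested. In cortex no member was without overlap in any of the 4 comparisons of diet and genotype (10%, 23.4%, 17.2% and 19% of probes). In all 8 comparisons of diet and genotype, 0 members had an unadjusted p under 0.05 in limma. Except for those of wild-type diet and of Ttpa-/- diet in cerebellum, each compared arrays of different slides, so slide and condition cannot be told apart.

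Between regions, Otx2 was the member called higher in cerebellum than in cortex at both ages. The difference was 2.36 in young mice (SE 0.84, adjusted p = 0.0155, limma) and 3.04 in aged mice (SE 0.84, adjusted p = 0.00264, limma), and the arrays of the regions did not overlap at either age (in young mice 1 member against 58.1% of probes). In young mice it was the only member called (19.3% of probes were called higher in cerebellum and 19.1% lower), and cerebellum minus cortex for Ttr was -1.26 (adjusted p = 0.401, limma). That count rested on single arrays: without young cerebellum replicate 1, or without young cortex replicate 4, 8 members were called, 7 of them lower in cerebellum in the first case and all 8 lower in the second, where Otx2 was no longer called. Without both, and without the 2 other low cortical arrays, 9 members were called, and Ttr was -4.01 (adjusted p = 0.000175, limma). These arrays were chosen after their values were seen. Of 20 further plexus genes tested with all young arrays, 3 were lower in cerebellum (Car12 at -2.49, Col8a1 and Igfbp2) and 2 higher (Rdh5 at 1.39 and Sulf1). Of the ependymal genes 4 of 6 tested were lower (among them Tmem212 at -2.64 and Rsph1 at -1.97) and of the red blood cell genes 2 of 2 higher, and their part in the result was not tested.

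In aged wild-type mice 7 members were called lower in cerebellum (15.8% of probes) and Otx2 higher (17.8%), with 8 members without overlap (56.4% of probes). Ttr was lower by 8.87 (adjusted p = 4.26e-07), Sostdc1 was at -3.61, Folr1 at -3.68, Kl at -3.65, Krt18 at -3.46, Enpp2 at -1.62 and Kcnj13 at -1.43 as cerebellum minus cortex, all called in limma. Clic6 (1.03, adjusted p = 0.232) and Aqp1 (-1.94, adjusted p = 0.0891, both limma) were not called. Without aged cortex replicate 4, Aqp1 was called too, which made 9. Kcnj13 was not called without aged cortex replicate 1 or 3 or without aged cerebellum replicate 2 or 3. Of the further plexus list 9 of 21 tested were lower, among them Car12 (-4.28) and Wfdc2 (-3.22), and Sulf1 was higher (1.21). Of the genes called lower, Sostdc1 and Col8a1 were well above background on 2 of 4 aged cerebellar arrays, Wfdc2 on 1 and Abca4 on 0. Abca4 was thus at least 3.08-fold lower. These genes entered the test through cortex alone, and their differences rest in part on signals near background. Of the ependymal genes 4 of 6 tested were lower too, and the part of such tissue in the result was not tested. At both ages the regions lay on different slides, so slide and region cannot be told apart.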

How the data were processed

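RNA of 40 tissue samples was labelled with 1 dye and each sample hybridized to 1 array. The deposited scanner tables hold processed signal intensity per spot, which per the file headers was background-subtracted by Feature Extraction 10.7.3.1 (the labels name 10.1.1.1). The authors also deposited a table of log2 values, scaled to the 75th percentile and centred per probe. It differed from the values below by a median of 0.00085 after centring, and its column medians ran from -0.235 to 0.185. It was used as an alternative.

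Here control spots and spots marked as outliers (95 to 148 per array) were left out, spots of a probe were averaged, and log2 processed signals were scaled by subtracting each array's log2 75th percentile. Probes lay on mm9 per the files. The member's probe with the highest mean over 40 arrays stood for Folr1, Kcnj13 and Sostdc1, which have 2 probes each. limma 3.58.1 in R 4.3.3 was fitted to all 40 arrays with 1 term per group. A probe was tested if 1 of the compared groups had it well above background on 4 of 4 arrays. A call needed a Benjamini-Hochberg adjusted p below 0.05 over all probes tested and a fold above 1.5. Exact permutation tests were two-sided. The named genes were the 10 members, the 10 genes most like them, and the calls of the further plexus list. Likeness was measured after subtracting region means. Probes named only by a probe, accession or predicted locus identifier were left out of it. Marker lists of ependyma, meninges, blood, endothelium, oligodendrocytes, striatum, brainstem, cerebellum and cortex were measured beside them. The members and lists were chosen with earlier results of these data known. The labels call the 4 samples of a group separate mice. The number of arrays limits the precision. Alternatives were other scalings (median, quantile), normexp background correction, the authors' table, no filter on dim probes, all probes of a member, the methods' test, a fit restricted to the arrays compared, a replicate block, and leaving out arrays. The scripts were tested on simulated data.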

Additional observations from a re-analysis of the deposited data

Results flagged for a closer look

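Several single arrays lay far from the other 3 of their group, by the size of the gap relative to the range of the group. In young wild-type cortex this was replicate 4, with Ttr at 0.76, Kl at -3.07, Krt18 at -3.14, Folr1 at -2.53, Otx2 at -3.39, Clic6 at -1.64, Kcnj13 at -1.10, Aqp1 at -3.45 and Sostdc1 at -4.05 as log2 signal relative to the 75th percentile. In Ttpa-/- cortex on the deficient diet it was replicate 1, with Ttr at 3.44, Kl at -1.74, Krt18 at -2.93, Folr1 at -1.92 and Otx2 at -3.81. On the same array Clic6 was at -1.43, Kcnj13 at -0.55, Aqp1 at -3.55, Sostdc1 at -2.79 and Enpp2 at 4.80. In aged wild-type cerebellum Kcnj13 was at -0.75 on replicate 3. These were 20 of 96 pairs of gene and group, where chance gives about 1 in 20, and values of different members on an array are not independent. The ageing change of Ttr in cerebellum minus that in cortex, -7.62, passed the interaction test in limma, but not without young cerebellum replicate 1 or in a fit of the 4 groups alone.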

How the results depend on the processing

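With the replicate number as a replicate block, no count of members called moved by over 1.5 times: 3 for ageing in cerebellum, 1 and 8 for the region comparisons in young and aged mice, and 1 for the interaction (Ttr with age in cerebellum -7.70, adjusted p = 6.2e-05 in limma). The numbers were not taken to pair the samples, since the lowest correlation of same-numbered samples was -0.446 to 0.0783 over the comparisons. The mean correlations were mixed. For supplementation in Ttpa-/- cerebellum, same-numbered samples had a mean of 0.345 and other pairs -0.104. For Ttpa loss plus deficient diet in cerebellum these were -0.119 and 0.0464. For ageing in cerebellum 1 member (Ttr) was called with no filter on dim probes, in a fit of the compared groups alone and by the adjusted methods' test. For wild-type diet in cerebellum 1 (Enpp2) was called by the unadjusted methods' test and without the 4 arrays that stand apart. For Ttpa loss plus deficient diet in cerebellum 1 (Krt18) was called in a fit of the compared groups alone, by the methods' test with and without adjustment, and without those 4 arrays, and for Ttpa loss on the deficient diet in cortex 1 (Otx2) without them. In young mice the regions gave 0 by the adjusted methods' test, 2 with all probes (Otx2 and Sostdc1) and 9 without the 4 arrays, where Ttr was at -4.01. The ageing interaction gave 0 in a fit of the 4 groups alone. Without the 4 arrays, chosen after seeing the data, the cortical diet difference of Ttr was -0.27 in wild-type and -0.55 in Ttpa-/- mice. The cause of these changes was not tested. Leaving out 1 array at a time gave 1 to 5 members for ageing in cerebellum, 1 to 8 and 7 to 9 for the regions in young and aged mice, 0 to 1 for the ageing interaction and 0 to 0 elsewhere. The change of Ttr then ran, in cortex and cerebellum, from -1.60 to 1.08 and -8.65 to -6.46 for ageing, -0.27 to 1.51 and 0.23 to 1.24 for wild-type diet, -0.010 to 2.13 and -0.28 to 0.73 for Ttpa loss plus deficient diet, -0.070 to 1.24 and -0.81 to -0.06 for Ttpa loss on the deficient diet, and -0.55 to 0.76 and 1.15 to 2.63 for supplementation. Between regions it ran from -2.77 to -0.31 in young and -10.04 to -8.21 in aged mice. Signals near background limit Sostdc1, Aqp1 and Krt18 in aged cerebellum.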

Other observations

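Other marker lists were measured on the arrays that stood apart, as means of log2 signal over the list. Oligodendrocyte genes were at 3.32 to 4.29 on the 3 cortical arrays low in the plexus genes and at 3.32 to 4.27 on the other 17, and at 3.44 on young cerebellum replicate 1 against 3.88 to 4.20 on the other young cerebellar arrays. Meningeal genes were at 0.93 to 1.70 on the 3 arrays, at 1.49 to 1.97 on the 17 and at 1.70 on young cerebellum replicate 1. Endothelial genes were at 1.89 to 1.95 on the 3 and at 1.65 to 1.91 on the 17, and at 1.75 on young cerebellum replicate 1. Striatal genes were at 0.09 to 1.53 on the 3 and at 0.13 to 1.80 on the 17. Brainstem genes were between -6.92 and -5.20 on every array, and none of the 4 present passed the filter of any comparison. On Ttpa-/- supplemented-diet cerebellum replicate 3, 3 of the 4 were well above background, and on every other array at most 1 was.

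The mean of 3 genes of red blood cells was -3.70 to 0.06 on the 3 low cortical arrays, -2.37 to 4.89 on the other 17, -0.21 on young cerebellum replicate 1 and 0.32 to 4.33 on the 16 aged cerebellar arrays.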
